A study of Mus musculus with 41 samples.

Results

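Plasma cells and germinal center (GC) B cells of wild-type mouse spleen were compared across all genes. The comparison used 7 of the 41 libraries of the series, 3 of Plasma cells and 4 of GC B cells, taken by their cell type and genotype labels. Bulk RNA-seq was made from polyadenylated RNA of sorted cells. The mice were 3 to 5 months old. Plasma_wt cells were sorted as B220+CD138+, and GC_wt cells as B220+CD93-CD138-GL7+FAS+. The Plasma_wt libraries came from animals 358, 412 and 487, and the GC_wt libraries from animals 358, 413, 487 and 565, as numbered in the library names. The library of animal 565 is titled wt, although its name reads Mek1ff, which is the name of a floxed allele. An immature B cell library of the same animal, also named Mek1ff, is titled with the mutant genotype label. The genotype labels of animal 565 thus conflict within the series, and its GC library was used as wt by its title alone. A second set of libraries, which shares no sample with the first, served as a comparison: 3 labelled Plasma_1Mek2 and 4 labelled GC_1Mek2, from Mek1flox/flox Mek2+/- Tg+/Vav1-icre mice, sorted with the same antibodies. The Vav1 promoter drives this recombinase in blood cells in general, so the deletion is not limited to B cells. The strain and sex of the mice and any immunization are not given in the sources used here.

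GC B cells are antigen-activated B cells that divide rapidly in follicles, mutate their antibody genes and compete for help from T cells. The transcription factor BCL6 holds this state. Plasma cells are the antibody-secreting end stage: BLIMP-1 (Prdm1), IRF4 and XBP1 replace the B cell program of PAX5 and BCL6, division stops, and the endoplasmic reticulum (ER) expands to fold and export immunoglobulin.

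The libraries carried the markers of their labels. Total counts ran from 15396050 to 18516751 in Plasma_wt and from 15684426 to 25326853 in GC_wt. Plasma_wt libraries correlated with each other at 0.892 to 0.938 (Pearson's r of log2 CPM across genes) and with GC_wt libraries at 0.691 to 0.812. Plasma_wt replicate 2 stood apart within its group in some gene lists. It had 6844 CPM summed over ER folding genes, against 21002 and 18194 CPM in replicates 1 and 3. It also had the most RNA of T cell, neutrophil and immediate early genes. Across genes it did not stand apart: replicates 2 and 3 correlated at 0.938, and replicate 1 at 0.892 with replicate 2 and at 0.92 with replicate 3. GC_wt replicates 1 and 4 stood apart through reads over long neuronal genes, given with the other background lists near the end. The Plasma_wt libraries also held RNA of T cells, NK cells, neutrophils, macrophages and red cell precursors, and the part of these cells in each result was not tested. In bulk RNA, fewer cells of a type and less RNA per cell cannot be told apart. The library names are built differently in the Plasma and GC groups, so any difference in handling that goes with the names and the subset cannot be told apart.

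Of 17769 genes tested, 1485 were higher in Plasma_wt (8.36%) and 1916 were lower (10.8%), by edgeR's quasi-likelihood test at a Benjamini-Hochberg adjusted p under 0.05, the call used throughout. With the animal as a block, 872 genes were higher (4.91%) and 624 lower (3.51%), and against GC_wt replicates 2 and 3 alone 823 were higher (5.11%) and 462 lower (2.87%). In exon reads 1589 were higher (10.4%) and 831 lower (5.42%). Leaving out GC_wt replicate 1, 2 or 4 gave 802, 956 and 891 higher and 740, 1047 and 981 lower genes, and 1259 and 1087 were lower without Plasma_wt replicate 2 and replicate 3. The median log2 fold change over all genes tested was -0.05. CPM values are counts over the whole gene span scaled to library size with TMM factors, and log2 fold changes are Plasma_wt minus GC_wt with their standard error. The CPM of all Plasma_wt libraries lay above all GC_wt libraries for 2604 genes (14.7%) and below them for 2649 (14.9%).

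**Figure D1:**
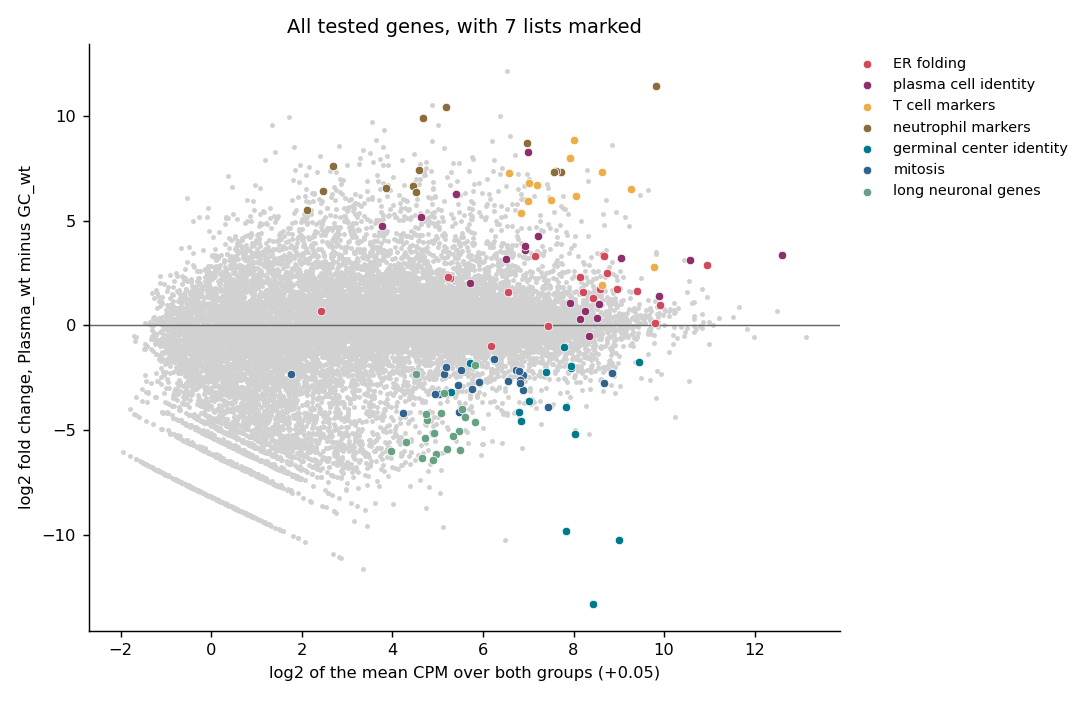
Log2 fold change of each of the 17769 tested genes (Plasma_wt minus GC_wt, vertical axis) against the log2 of its mean CPM over both groups (horizontal axis), with 7 gene lists coloured and all other genes in grey. Plasma cell identity and ER folding genes lie mostly above 0 together with T cell and neutrophil markers, and germinal center identity, mitosis and long neuronal genes lie below 0.

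Plasma cell identity genes were higher in Plasma_wt. Of the 20 genes listed, all were tested, 14 rose and none fell, with a median log2 fold change of 3.21, against the 8.36% and the -0.05 of all genes. The 14 include Sdc1, the antigen of the Plasma gate, and Cd28, which is also in the T cell list. The count and the median are thus set in part by the sort. In exon reads 13 rose and 1 fell: Eaf2, a partner of the elongation factor ELL, was at -1.43 in exon reads (edgeR, adjusted p = 0.0482) and did not pass on gene-span counts (-0.53, edgeR, adjusted p = 0.492). Jchain, which joins the chains of secreted IgM and IgA, had 15504, 6515 and 12201 CPM in Plasma_wt replicates 1 to 3, against 876, 810, 1793 and 1028 CPM in GC_wt replicates 1 to 4. The lowest Plasma_wt library had more than 3 times the CPM of the highest GC_wt library, and the log2 fold change was 3.34 ± 0.45 (edgeR, adjusted p = 0.00011). Per transcript length, Jchain averaged 7390 TPM in Plasma_wt and 1532 TPM in GC_wt. Prdm1, the gene of BLIMP-1 (chromosome 10, 44313170 to 44404579, minus strand, GRCm39), had 156, 29.2 and 68.3 CPM in Plasma_wt, against 22.9, 22, 9.44 and 27.6 CPM in GC_wt. The groups did not overlap, but Plasma_wt replicate 2 lay just above the highest GC_wt library, and the log2 fold change was 2.04 ± 0.55 (edgeR, adjusted p = 0.0169). The Prdm1 call rested on single libraries: the edgeR adjusted p was 0.263 without Plasma_wt replicate 1, 0.054 to 0.107 without any one of the GC_wt libraries and 0.121 against GC_wt replicates 2 and 3 alone.

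Xbp1, the transcription factor of the secretory program, had 3420, 1539 and 3211 CPM in Plasma_wt, against 311, 373, 378 and 179 CPM in GC_wt (log2 fold change 3.13 ± 0.43, edgeR, adjusted p = 0.000132). Irf4, which acts upstream of Prdm1, had 281, 80.7 and 310 CPM in Plasma_wt, against 9.66, 23.2, 13.2 and 28.3 CPM in GC_wt (3.59 ± 0.52, edgeR, adjusted p = 0.000207). In both genes the groups were apart, and Plasma_wt replicate 2 was the lowest Plasma library. Tnfrsf17, the gene of the survival receptor BCMA, had 50.3, 18.3 and 75.8 CPM in Plasma_wt and at most 2.76 CPM in any GC_wt library (5.18 ± 0.91, edgeR, adjusted p = 0.00096). Sdc1 encodes CD138, the antigen of the Plasma gate, so its level checks the sort and is no finding: it had 305, 95.1 and 365 CPM in Plasma_wt, against 0.0721 to 1.5 CPM in GC_wt.

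Further members with a secretory or survival role rose as well. Fkbp11, an ER prolyl isomerase, rose by 6.26 on the log2 scale, Bhlha15 (MIST1, a transcription factor of secretory cells) by 4.76, Tent5c (a poly(A) polymerase that supports immunoglobulin mRNA) by 4.28 and Pim2 (a survival kinase) by 3.19. Mzb1, an ER chaperone of marginal zone B and plasma cells, had overlapping groups (1684, 590 and 1856 CPM in Plasma_wt, 277 to 718 CPM in GC_wt) and a log2 fold change of 1.40 ± 0.45 (edgeR, adjusted p = 0.0404, and 0.0538 with the animal as a block). Without Plasma_wt replicate 1 or 3, or without GC_wt replicate 1, 2 or 4, the edgeR adjusted p of Mzb1 was 0.0997 to 0.183, and that of Bhlha15 was 0.101 without GC_wt replicate 1 and 0.109 without GC_wt replicate 4. Cd28 had 723, 324 and 409 CPM in Plasma_wt and 0 to 4.11 CPM in GC_wt; it is a costimulatory receptor of plasma cells, and a T cell marker as well. The remaining 6 members did not pass.

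**Figure D2:**
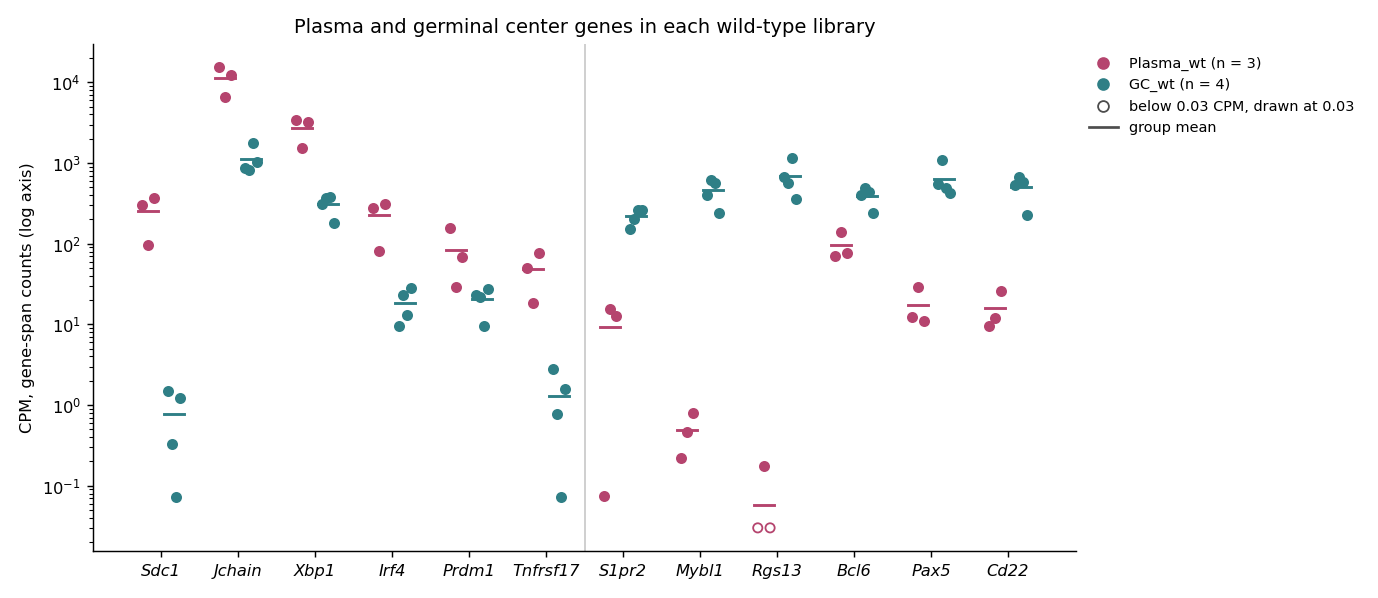
CPM on a log axis of 12 genes in each library, with Plasma_wt points (n = 3) to the left of GC_wt points (n = 4), a bar at each group mean and open circles for values under 0.03 CPM. The first 6 genes are higher in every Plasma_wt library than in any GC_wt library, and the last 6 are lower in every Plasma_wt library.

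The folding machinery of the ER was higher in Plasma_wt. Of 23 tested chaperones, disulfide isomerases and cochaperones, 17 rose and none fell, against 8.36% of all genes higher. The median log2 fold change was 1.74, against -0.05 for all genes. Hsp90b1, the gene of the chaperone GRP94, had 5262, 1471 and 3744 CPM in Plasma_wt, against 465, 405, 539 and 463 CPM in GC_wt (2.90 ± 0.44, edgeR, adjusted p = 0.000321). Dnajc3, which encodes the cochaperone p58IPK, had 946, 500 and 766 CPM in Plasma_wt, against 81.0, 61.9, 78.2 and 71.5 CPM in GC_wt (3.33 ± 0.39, edgeR, adjusted p = 3.42e-05). Hspa5, the gene of the Hsp70 chaperone BiP that binds unassembled heavy chains, had 781, 306 and 693 CPM in Plasma_wt, against 188, 150, 268 and 105 CPM in GC_wt (1.74 ± 0.43, edgeR, adjusted p = 0.0108, and 0.0569 with the animal as a block). The groups were apart in all 3 genes, with Plasma_wt replicate 2 the lowest Plasma library each time. The Hspa5 call was lost without Plasma_wt replicate 1, GC_wt replicate 2 or GC_wt replicate 4 (edgeR, adjusted p = 0.0751, 0.0562 and 0.0521). Leaving out single libraries left 10 to 16 of the folding genes called higher, with 10 or 11 without Plasma_wt replicate 1 or GC_wt replicate 1, 2 or 4.

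Not every relative of a risen folding gene passed. Pdia4, a disulfide isomerase, had 1169 and 917 CPM in Plasma_wt replicates 1 and 3 but 112 CPM in replicate 2, inside the GC_wt range of 44.7 to 123 CPM (log2 fold change 3.34). Calr (calreticulin) rose by 1.75 on the log2 scale (edgeR, adjusted p = 0.0536 without GC_wt replicate 1), whereas its membrane-bound relative Canx (calnexin) had 1514, 262 and 982 CPM in Plasma_wt, against 799, 644, 1448 and 526 CPM in GC_wt. The 2 groups of Canx overlapped (0.11 ± 0.51, edgeR, adjusted p = 0.924). The oxidase Ero1a rose by 2.31 (edgeR, adjusted p = 0.0144, 0.0542 with the animal as a block, and 0.0522 to 0.0782 without Plasma_wt replicate 1 or GC_wt replicate 2 or 4). Its paralog Ero1b had a log2 fold change of -1.0 ± 0.48 that missed the threshold (edgeR, adjusted p = 0.162, and 0.0471 without GC_wt replicate 4).

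Genes upstream and downstream of folding rose in smaller numbers, and none of them fell. Among all genes 8.36% were higher. For entry into the ER, 8 of 23 tested genes rose, with a median of 1.01, among them Ssr4 (2.55), a subunit of the translocon-associated complex, Srprb (1.85), of the receptor that docks ribosomes at the ER, and Sec11c (1.79), a signal peptidase subunit. For N-glycosylation 8 of 17 rose (median 1.24), among them Ddost (2.22), a subunit of the oligosaccharyltransferase. For vesicle transport 8 of 26 rose (median 0.71), among them the cargo receptors Lman1 (2.08) and Tmed10 (1.95) and Cope (1.54), of the COPI coat. For ER-associated degradation 7 of 16 rose (median 0.97), with Derl3 at 3.81, Edem2 at 2.90 and Os9 at 2.57, genes that recognise and extract misfolded glycoproteins. Leaving out single libraries left 3 to 8 entry genes, 2 to 7 N-glycosylation genes, 4 to 7 vesicle transport genes and 4 to 7 degradation genes called higher. Without Plasma_wt replicate 1 the counts were 3, 2, 4 and 4 in the same order. In that fit 1232 genes in all were called higher, in place of 1485. These 2 counts do not share a base, because leaving out a Plasma_wt library changes which genes pass the low-count filter. Without Plasma_wt replicate 2, for example, 22363 genes were tested, against 17769 in the main fit. The calls of Sec11c and Cope were lost without Plasma_wt replicate 1 (edgeR, adjusted p = 0.0548 and 0.0574), that of Cope also with the animal as a block (edgeR, adjusted p = 0.0741), and that of Srprb without GC_wt replicate 1 (edgeR, adjusted p = 0.0559). The ubiquitin ligase of the degradation route, Syvn1, had overlapping groups (109, 69.8 and 101 CPM in Plasma_wt, 66 to 141 CPM in GC_wt).

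Among 12 tested regulators of the unfolded protein response, 5 rose and none fell, against 8.36% of all genes higher. Ern1, the gene of IRE1, the sensor that splices Xbp1 mRNA, had 186, 53.8 and 106 CPM in Plasma_wt, against 20.1, 8.59, 6.06 and 20.8 CPM in GC_wt (3.05 ± 0.54, edgeR, adjusted p = 0.00108). Every Plasma_wt library lay above every GC_wt library for this sensor. Eif2ak3, the gene of the sensor PERK, had 124, 66.2 and 118 CPM in Plasma_wt, against 190, 396, 213 and 144 CPM in GC_wt; it did not pass on gene-span counts (-1.20 ± 0.44, edgeR, adjusted p = 0.0634) and was lower in exon reads (-1.68, edgeR, adjusted p = 0.0443) and without GC_wt replicate 3 or 4 (edgeR, adjusted p = 0.0429 and 0.0317). Atf6, the gene of the other sensor, had 203, 87.3 and 170 CPM in Plasma_wt and 70.7 to 130 CPM in GC_wt, with overlap. Against GC_wt replicates 2 and 3 alone, the risen genes numbered 7 of 23 for folding, 1 of 23 for entry and 2 of 17 for N-glycosylation. They numbered 1 of 26 for vesicle transport, 4 of 16 for degradation and 3 of 12 for the response regulators. In that fit 5.11% of all genes were higher, so the shares for entry and vesicle transport were near that of all genes. In exon reads 5 of 23 rose for entry and 5 of 17 for N-glycosylation, against 10.4% of all genes.

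The ER stress response element is a promoter sequence of a CCAAT block and a CCACG block with 9 bases of any kind (N) between them, which ATF6 and XBP1 are known to bind together with NF-Y. It was searched on both strands in RefSeq promoters of GRCm38.p6, from 250 bases before to 50 bases after each start. Counted once a gene symbol, as in the lists, it was found in 37 of 27025 genes (0.137%), in 8 of 21 matched folding genes, in 2 of 14 matched degradation genes, and in none of the 17 entry or 11 response regulator genes matched. The windows below show it for 6 genes that rose and for Canx, which did not pass, with the CCAAT and CCACG blocks in capitals (CGTGG and ATTGG where the element lies on the other strand).
Hspa5: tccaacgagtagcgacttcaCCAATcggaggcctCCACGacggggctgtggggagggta
Dnajc3: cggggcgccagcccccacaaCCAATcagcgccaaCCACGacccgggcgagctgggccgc
Hsp90b1: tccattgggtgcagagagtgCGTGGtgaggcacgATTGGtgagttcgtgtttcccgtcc
Calr: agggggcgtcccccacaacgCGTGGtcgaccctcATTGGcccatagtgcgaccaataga
Creld2: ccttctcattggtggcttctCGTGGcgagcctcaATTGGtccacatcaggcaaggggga
Derl3: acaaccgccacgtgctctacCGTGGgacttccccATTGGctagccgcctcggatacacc
Canx: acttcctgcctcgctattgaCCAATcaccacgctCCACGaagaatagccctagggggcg
These windows lie at chr2:34772005-34772063 for Hspa5, chr14:118937807-118937865 for Dnajc3, chr15:88819500-88819558 for Creld2 and chr10:75893222-75893280 for Derl3 on the plus strand, and at chr10:86705513-86705571 for Hsp90b1, chr8:84847055-84847113 for Calr and chr11:50325780-50325838 for Canx on the minus strand. Hsp90b1 holds a further copy, at -212 to -194 from its start, beside the one shown at -107 to -89. The element stood closest to the start in Hspa5 among those shown (-65 to -47). Pdia6 holds it and rose (1.65, edgeR, adjusted p = 0.0105, 0.126 with the animal as a block and 0.0847 without Plasma_wt replicate 1), and Ero1b and Syvn1 hold it and did not pass. The presence of these letters was thus not tied to a call in every gene.

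Immunoglobulin transcripts took a larger part of the Plasma_wt libraries. Most of these genes are at 0 in the count table, so reads on exons, recovered from the TPM table, were used. The 396 immunoglobulin genes took 13.5%, 6.94% and 12.3% of exon reads in Plasma_wt, against 1.21%, 1.25%, 1.46% and 1.18% in GC_wt. The means were 10.9 ± 3.47% in Plasma_wt and 1.27 ± 0.128% in GC_wt (SD, n = 3 and 4), which is 8.55-fold higher. The groups were apart, with a two-sided exact permutation p of 0.0571, the smallest that 3 libraries against 4 allow. As a share of TPM, which counts transcripts per length, immunoglobulin took 47.4%, 27.2% and 43.0% in Plasma_wt, against 7.95%, 7.90%, 8.70% and 6.47% in GC_wt. By class of segment, the mean share was 35.5-fold higher for heavy chain variable genes, 14-fold for kappa variable genes, 8.94-fold for lambda variable genes and 4.74-fold for constant genes.

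Among 12 constant genes in exon reads 10 rose and 1 fell, with 10.4% of all genes higher and 5.42% lower in these reads. Igha, the heavy chain of the mucosal isotype IgA, had 12622, 9050 and 10333 exon CPM in Plasma_wt, against 51.7, 118, 112 and 0 in GC_wt (7.24 ± 1.44, edgeR, adjusted p = 0.00676). Ighm, the heavy chain of IgM, had 15747, 10221 and 14038 exon CPM in Plasma_wt, against 2172, 2320, 2451 and 1550 in GC_wt (2.65 ± 0.30, edgeR, adjusted p = 8.04e-05). Ighd, the heavy chain of IgD, which marks naive B cells, was the member that fell, with 12.5, 3.83 and 7.67 exon CPM in Plasma_wt, against 35.9, 167, 50.1 and 62.8 in GC_wt. Iglc3 was the member that did not pass (692, 106 and 763 exon CPM in Plasma_wt, 312 to 593 in GC_wt), while Iglc1 rose by 2.37 and Iglc2 by 2.20; lambda constant genes are near-identical copies, so the split of reads between them is uncertain.

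The heavy chain isotypes were mixed differently. Igha made up 35.9%, 42.0% and 32.5% of heavy chain constant exon reads in Plasma_wt, against 1.25%, 3.03%, 2.73% and 0% in GC_wt. The 0 of GC_wt replicate 4 allows a share of up to 0.00799% (3 reads of 37556, counting error only). Ighg1, the IgG1 heavy chain, made up 7.44%, 4.80% and 9.59% in Plasma_wt, against 24.5%, 16.5%, 18.1% and 18.2% in GC_wt, so its share was lower in every Plasma_wt library although its exon CPM rose by 1.61. Ighm held 44.1 to 47.4% in Plasma_wt and 52.7 to 59.9% in GC_wt.

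**Figure D3:**
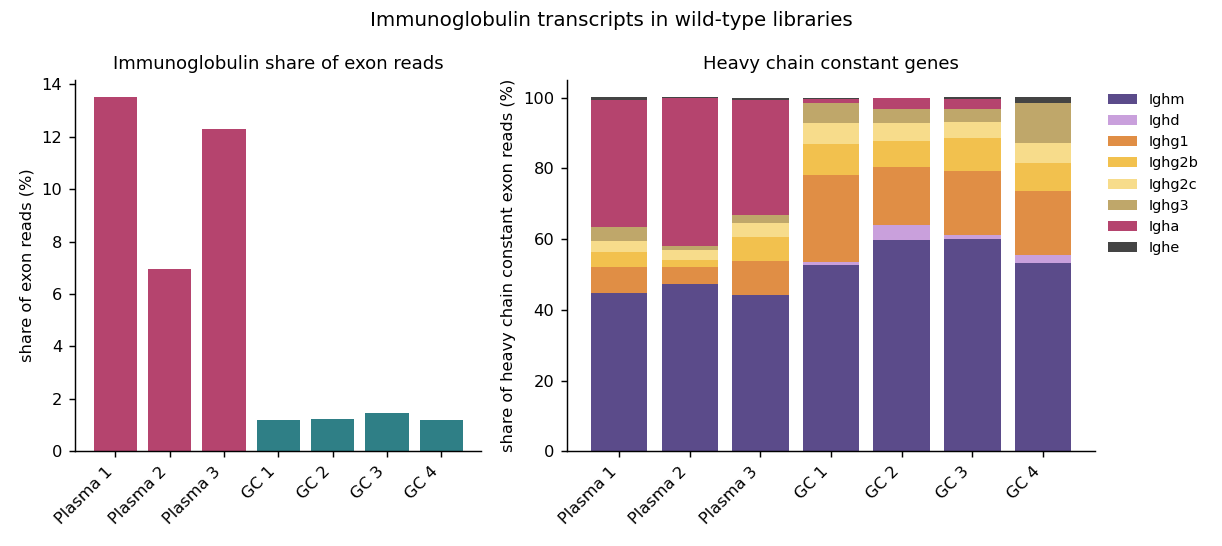
Left: share of exon reads (%) on 396 immunoglobulin genes in each library, Plasma_wt left of GC_wt. Right: heavy chain constant genes as a share (%) of their summed exon reads in each library, with Igha at 32.5 to 42.0% in Plasma_wt and 0 to 3.03% in GC_wt.

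Germinal center identity genes were lower in Plasma_wt. Of 16 listed genes 15 were tested on gene-span counts, 14 fell and none rose, with a median log2 fold change of -3.62, against 10.8% of all genes lower. The 14 include Fas, an antigen of the GC gate, whose level checks the sort and is no finding. S1pr2, the receptor that keeps GC B cells in the follicle, had 0.0735, 15.4 and 12.7 CPM in Plasma_wt, against 154, 204, 260 and 264 CPM in GC_wt. The groups were far apart and Plasma_wt replicate 1 was nearly without the transcript; the log2 fold change was -4.55 ± 1.00 (edgeR, adjusted p = 0.00854, 0.129 without Plasma_wt replicate 3 and 0.0562 against GC_wt replicates 2 and 3 alone). Bcl6 had 70.0, 139 and 77.5 CPM in Plasma_wt, against 402, 493, 439 and 243 CPM in GC_wt (-2.04 ± 0.43, edgeR, adjusted p = 0.0035). It fell without reaching 0 in any Plasma_wt library, and its highest Plasma_wt value was in replicate 2.

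Other members were close to absent from Plasma_wt. Rgs13, a regulator of chemokine receptor signalling, had 3 reads in all in Plasma_wt and 56736 in GC_wt, a ratio of 10622 in GC_wt over Plasma_wt with a 95% counting interval of 3634 to 51509. Mybl1, a MYB family transcription factor of GC B cells, had 0.220, 0.461 and 0.794 CPM in Plasma_wt, against 405, 625, 566 and 241 CPM in GC_wt (-9.82 ± 0.68, edgeR, adjusted p = 4.16e-07). Both genes gave almost no reads in any Plasma_wt library, whereas Gcsam, a GC adaptor protein, had 29.4, 1.15 and 10.9 CPM in Plasma_wt, against 355 to 715 CPM in GC_wt (-5.20). Mef2b, a cofactor that promotes Bcl6, was counted in exon reads alone, at 0.0719, 0.519 and 0.115 exon CPM in Plasma_wt and 25.6 to 38.7 in GC_wt. Gna13, which relays the S1pr2 signal, had 130, 139 and 161 CPM in Plasma_wt and 244 to 351 CPM in GC_wt and did not pass (-1.05 ± 0.37, edgeR, adjusted p = 0.0525), although it was called lower in exon reads (edgeR, adjusted p = 0.0252) and without GC_wt replicate 3 or 4 (edgeR, adjusted p = 0.027 and 0.0393). Fas, an antigen of the GC gate, had 58.8, 32.1 and 85.8 CPM in Plasma_wt, against 230, 250, 433 and 196 CPM in GC_wt.

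B lineage regulators were lower in part: of 20 tested, 11 fell and none rose (median -1.55), 6 with the animal as a block. Among all genes 10.8% were lower, and 3.51% with the block. Pax5, the keeper of B cell identity that BLIMP-1 represses, had 12.4, 29.4 and 11.1 CPM in Plasma_wt, against 549, 1078, 488 and 427 CPM in GC_wt (-5.17 ± 0.57, edgeR, adjusted p = 1.97e-05). Ebf1, its partner in B cell specification, had 95.1, 84.3 and 149 CPM in Plasma_wt, against 2302, 3928, 1884 and 1143 CPM in GC_wt (-4.40 ± 0.53, edgeR, adjusted p = 4.38e-05). Bach2, a repressor of Prdm1, had 212, 791 and 236 CPM in Plasma_wt, against 2464, 5425, 1484 and 967 CPM in GC_wt (-2.65 ± 0.63, edgeR, adjusted p = 0.00834). All 3 were lower in every Plasma_wt library than in any GC_wt library, and replicate 2 had the most Pax5 and Bach2 of the Plasma_wt libraries. Spib (-3.63), Bcl11a (-3.0) and Irf8 (-1.89), further transcription factors of B cells, also fell.

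Of 23 tested genes of B cell receptor signalling, 15 fell and none rose (median -1.87), against 10.8% of all genes lower. Cd22, an inhibitory coreceptor, had 9.48, 12.1 and 25.7 CPM in Plasma_wt, against 530, 670, 588 and 227 CPM in GC_wt (-4.99 ± 0.56, edgeR, adjusted p = 2.61e-05). Cr2, the gene of CD21, had 10.8, 8.92 and 14.5 CPM in Plasma_wt, against 319, 413, 392 and 84.3 CPM in GC_wt (-4.73 ± 0.58, edgeR, adjusted p = 4.8e-05). The groups were far apart in both. Ms4a1, the gene of CD20, was counted in exon reads alone and had 138, 41.4 and 161 exon CPM in Plasma_wt and 2399 to 3787 in GC_wt (-4.68). The receptor's signalling chains fell less: Cd79b had 355, 243 and 362 CPM in Plasma_wt, against 1021, 1540, 2540 and 1402 CPM in GC_wt (-2.34 ± 0.44, edgeR, adjusted p = 0.00152). Cd79a had 606, 243 and 497 CPM in Plasma_wt, against 823, 1027, 1887 and 915 CPM in GC_wt (-1.37 ± 0.45, edgeR, adjusted p = 0.0406, 0.402 with the animal as a block, 0.212 without Plasma_wt replicate 2 and 0.056 without Plasma_wt replicate 3). Fcer2a, the gene of CD23 on mature B cells, had 0, 3.11 and 1.81 CPM in Plasma_wt and 43.5 to 201 CPM in GC_wt.

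For antigen presentation on MHC class II, 5 of 11 tested genes fell and none rose, against 10.8% of all genes lower. Those that fell, the transactivator Ciita apart, control loading and surface display. Among them were H2-DMb2 (-2.52) and H2-Ob (-2.25), which act in the control of peptide loading. Cd83 (-2.60) and Marchf1 (-2.58), which set how long class II stays on the surface, fell too. So did the transactivator Ciita (-1.81, edgeR, adjusted p = 0.00483, and 0.076 with the animal as a block). The class II chains and their invariant chain did not pass. Cd74, the invariant chain, had 8077, 6708 and 7156 CPM in Plasma_wt, against 7612, 9197, 16531 and 9244 CPM in GC_wt, with overlap (-0.54 ± 0.40, edgeR, adjusted p = 0.408). H2-Aa, the alpha chain of I-A, had 1435, 1192 and 1637 CPM in Plasma_wt, against 1683, 1997, 4343 and 2569 CPM in GC_wt, with no overlap (-0.90 ± 0.42, edgeR, adjusted p = 0.153). In exon reads it was called lower (-1.17, edgeR, adjusted p = 0.0237). Macrophages, whose markers were higher in Plasma_wt, also express class II.

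Genes of cell division were lower in Plasma_wt. Of 22 tested genes of DNA replication 19 fell and none rose (median -1.96), and of 22 of mitosis 21 fell and none rose (median -2.67). Among all genes 10.8% were lower. Mki67, the proliferation antigen Ki-67, had 145, 180 and 150 CPM in Plasma_wt, against 778, 816, 828 and 629 CPM in GC_wt (-2.27 ± 0.39, edgeR, adjusted p = 0.000788). Cdk1, the kinase that starts mitosis, had 7.20, 12.4 and 15.4 CPM in Plasma_wt, against 58.3, 73.6, 120 and 133 CPM in GC_wt (-3.04 ± 0.50, edgeR, adjusted p = 0.000587). Cenpe, a kinetochore motor, had 10.7, 24.3 and 29.7 CPM in Plasma_wt, against 335, 288, 404 and 277 CPM in GC_wt (-3.92 ± 0.47, edgeR, adjusted p = 4.5e-05). The groups were apart in each, and none of the 3 genes was at 0 in a Plasma_wt library. Mcm5, of the replicative helicase, had 55.2, 83.8 and 57.8 CPM in Plasma_wt and 236 to 415 CPM in GC_wt (-2.28), and Pola1, of the priming polymerase, fell by 3.22 on the log2 scale. Prc1 was the mitosis gene that did not pass on gene-span counts (-2.34 ± 1.25, edgeR, adjusted p = 0.223), and it did so in exon reads (-2.73, edgeR, adjusted p = 0.00911). Without Plasma_wt replicate 2, 11 replication genes were called lower in place of 19, with 5.63% of all genes lower in that fit.

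The cell cycle homology region, spelled TTTGAA, is a promoter element of genes that peak in G2 and mitosis, known to be bound by the MuvB complex. In the same promoter windows, again counted once a gene symbol, it was found in 5466 of 27025 genes (20.2%), in 12 of 18 matched mitosis genes and in 3 of 19 matched replication genes. The stretches below are those of 5 mitosis genes that fell, each chosen for a copy before the annotated start, with that copy in capitals (TTCAAA where it lies on the other strand).
Cdk1: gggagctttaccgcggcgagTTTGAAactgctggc
Cdc20: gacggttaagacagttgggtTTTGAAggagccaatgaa
Top2a: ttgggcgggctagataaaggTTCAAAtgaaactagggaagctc
Kif11: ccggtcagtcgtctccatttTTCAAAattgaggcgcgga
Mki67: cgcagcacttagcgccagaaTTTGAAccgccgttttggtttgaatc
The stretches lie at chr10:69352913-69352947 for Cdk1, chr4:118437344-118437381 for Cdc20, chr11:99024190-99024232 for Top2a and chr7:135716470-135716515 for Mki67 on the minus strand, and at chr19:37376343-37376381 for Kif11 on the plus strand (GRCm38.p6). In Cdk1, Cdc20, Top2a and Kif11 the element began 15 to 23 bases before the start (-15, -18, -23 and -19), and in Mki67 at -116. Further copies began at -71 in Cdk1, at -179 in Top2a and at -98 in Mki67, where the second copy stands in lower case within the stretch shown. The position was not shared by the whole list: in 5 of the other mitosis genes with the element it lay after the start alone, beginning at 2 to 40. Top2a, the mitotic topoisomerase, fell by 2.77, Cdc20, an activator of the anaphase-promoting complex, by 2.65 and Kif11, the spindle motor, by 3.07 on the log2 scale.

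Of 20 tested regulators of cycle entry, 3 rose and 2 fell (median 0.11), shares near the 8.36% higher and 10.8% lower of all genes. Ccnd2, a D-type cyclin, had 871, 883 and 697 CPM in Plasma_wt, against 89.9, 135, 90.8 and 82.6 CPM in GC_wt (3.04 ± 0.38, edgeR, adjusted p = 5.73e-05). Ccnd1, another D-type cyclin, had 32.1, 74.1 and 36.8 CPM in Plasma_wt, against 1.33, 0.0407, 0.216 and 0.107 CPM in GC_wt (6.74 ± 1.01, edgeR, adjusted p = 0.000282). Cdkn1b, the gene of the inhibitor p27, had 114, 57.6 and 60.2 CPM in Plasma_wt, against 6.29, 13.1, 20.9 and 8.33 CPM in GC_wt (2.67 ± 0.52, edgeR, adjusted p = 0.00217). The cyclins and the inhibitor were thus higher in every Plasma_wt library; D-type cyclins and p27 are also expressed by T cells. The 2 that fell were Mybl2 (-3.19, edgeR, adjusted p = 0.0442), a transcription factor of dividing cells, and E2f2 (-1.36, edgeR, adjusted p = 0.031, and 0.186 with the animal as a block), a factor that induces S phase genes. The edgeR adjusted p of Mybl2 was 0.0948 to 0.135 without any one GC_wt library, and that of E2f2 was 0.055 to 0.123 without GC_wt replicate 2 or any one Plasma_wt library.

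Of 18 tested genes of somatic hypermutation and the repair pathways it uses, 10 fell and none rose (median -1.69). Among all genes 10.8% were lower. Neil1, a glycosylase, had 21.6, 24.7 and 38.4 CPM in Plasma_wt, against 389, 371, 620 and 324 CPM in GC_wt (-3.92 ± 0.46, edgeR, adjusted p = 3.51e-05). Hmces, which shields abasic sites in single-stranded DNA, had 61.6, 118 and 66.3 CPM in Plasma_wt, against 647, 836, 788 and 640 CPM in GC_wt (-3.15 ± 0.43, edgeR, adjusted p = 0.000116). The polymerase Polh (-2.28), which writes mutations at A:T pairs, and the mismatch repair genes Msh6 (-1.95) and Exo1 (-3.08) fell as well. The call of Msh6 was lost without Plasma_wt replicate 2 (edgeR, adjusted p = 0.0788), and that of Exo1 without GC_wt replicate 1, 2 or 4 (edgeR, adjusted p = 0.0657 to 0.145). Ung, the uracil glycosylase, had 11.6, 45.6 and 32.0 CPM in Plasma_wt and 20.2 to 66.9 CPM in GC_wt, with overlap. These genes also serve dividing cells, whose genes fell in the same libraries, and the part of cell division in their fall was not tested.

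Of 19 tested receptors for migration, 12 were higher in Plasma_wt, against 8.36% of all genes, and 3 were lower, a share near the 10.8% of all genes (median 1.99). Against GC_wt replicates 2 and 3 alone 8 were higher and 1 was lower. Ccr10, the receptor for the epithelial chemokines CCL27 and CCL28 on IgA plasma cells, had 22.7, 21.5 and 24.0 CPM in Plasma_wt, against 0.238 CPM in GC_wt replicate 1 and 0 in the other three (8.24 ± 1.34, edgeR, adjusted p = 0.000575). S1pr1, the receptor that guides lymphocytes out of tissue, had 494, 699 and 259 CPM in Plasma_wt, against 18.2, 75.7, 24.7 and 15 CPM in GC_wt (3.85 ± 0.56, edgeR, adjusted p = 0.000229). Itga4, an integrin chain, had 464, 465 and 399 CPM in Plasma_wt and 50.4 to 103 CPM in GC_wt (2.59). Itgb7, a chain that can pair with it, had 282, 877 and 334 CPM in Plasma_wt and 16.3 to 41.0 CPM in GC_wt (4.25). Cxcr5, which draws B cells into follicles, had 75.5, 38.4 and 62.9 CPM in Plasma_wt, against 392, 463, 404 and 122 CPM in GC_wt (-2.55 ± 0.49, edgeR, adjusted p = 0.00199). S1pr3, a relative of S1pr1, fell by 3.72 on the log2 scale (edgeR, adjusted p = 0.0301, 0.0982 without GC_wt replicate 1 and 0.0576 without GC_wt replicate 2). Cxcr4, the receptor for CXCL12, had 54.7, 16.5 and 35.3 CPM in Plasma_wt and 35.8 to 128 CPM in GC_wt and did not pass.

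Several of the homing receptors are also genes of other cells in these libraries. Ccr7 (5.00) and S1pr1 are expressed by naive T cells, and Ccr2 (7.52) by monocytes; S1pr1 and Itgb7 were highest in Plasma_wt replicate 2, which also had the most T cell RNA. T cell markers summed to 6932, 9618 and 5202 CPM in Plasma_wt and to 318 to 542 CPM in GC_wt, and their part in these rises was not tested.

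Among TNF receptors and survival genes 3 of 16 tested rose and 2 fell, against 8.36% and 10.8% of all genes, so the fallen share was near that of all genes. Of the receptors for BAFF and APRIL, Tnfrsf17 rose, as given above. Tnfrsf13b, the gene of TACI, had 480, 113 and 385 CPM in Plasma_wt, against 141, 213, 207 and 67.3 CPM in GC_wt, with overlap (1.05 ± 0.49, edgeR, adjusted p = 0.153). Tnfrsf13c, the BAFF receptor of mature B cells, had 86.8, 20.6 and 106 CPM in Plasma_wt, against 512, 500, 886 and 441 CPM in GC_wt (-3.04 ± 0.54, edgeR, adjusted p = 0.00113). Bcl2, the inhibitor of apoptosis that BCL6 represses in GC B cells, had 309, 721 and 331 CPM in Plasma_wt, against 23.2, 63.5, 30.2 and 23.1 CPM in GC_wt (3.70 ± 0.48, edgeR, adjusted p = 7.89e-05). Cd40, the receptor for T cell help, had 45.4, 17.9 and 30.0 CPM in Plasma_wt, against 98.4, 209, 189 and 97.3 CPM in GC_wt (-2.26 ± 0.47, edgeR, adjusted p = 0.00358). The groups were apart for all 3 of these genes. Cd27, a receptor of memory and plasma cells and of T cells, was counted in exon reads alone, with 282, 479 and 284 exon CPM in Plasma_wt and 0 to 5.07 in GC_wt (6.78). Bcl2 and Cd27 were highest in Plasma_wt replicate 2.

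The ERK cascade, which the study's mutation targets, did not pass in any of its 20 tested genes (median -0.09), and 1 gene was called higher without Plasma_wt replicate 1 or 2 or GC_wt replicate 2, and with the animal as a block. Map2k1, the gene of MEK1 (chromosome 9, 64093066 to 64160887, minus strand), had 145, 62.3 and 137 CPM in Plasma_wt, against 220, 274, 230 and 132 CPM in GC_wt, with overlap (-0.90 ± 0.42, edgeR, adjusted p = 0.153). Map2k2, the gene of MEK2 (chromosome 10, 80941749 to 80960531, plus strand), had 88.2, 153 and 95.4 CPM in Plasma_wt, against 50, 63.7, 44.8 and 65.8 CPM in GC_wt, without overlap (1.00 ± 0.39, edgeR, adjusted p = 0.0803). In glycolysis 2 of 14 genes rose, near the 8.36% of all genes, Hk1 (2.34), a hexokinase, and Eno1 (1.19, edgeR, adjusted p = 0.038, and 0.632 with the animal as a block), an enolase whose call was lost without any library but GC_wt replicate 3 (edgeR, adjusted p = 0.0694 to 0.255). In amino acid supply and mTOR control 2 of 18 rose, again near 8.36%: Slc3a2 (2.58), the shared chain of amino acid exchangers, which had 733, 507 and 679 CPM in Plasma_wt and 88.2 to 123 CPM in GC_wt, and Ddit4 (2.65), an inhibitor of mTORC1.

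**Figure D4:**
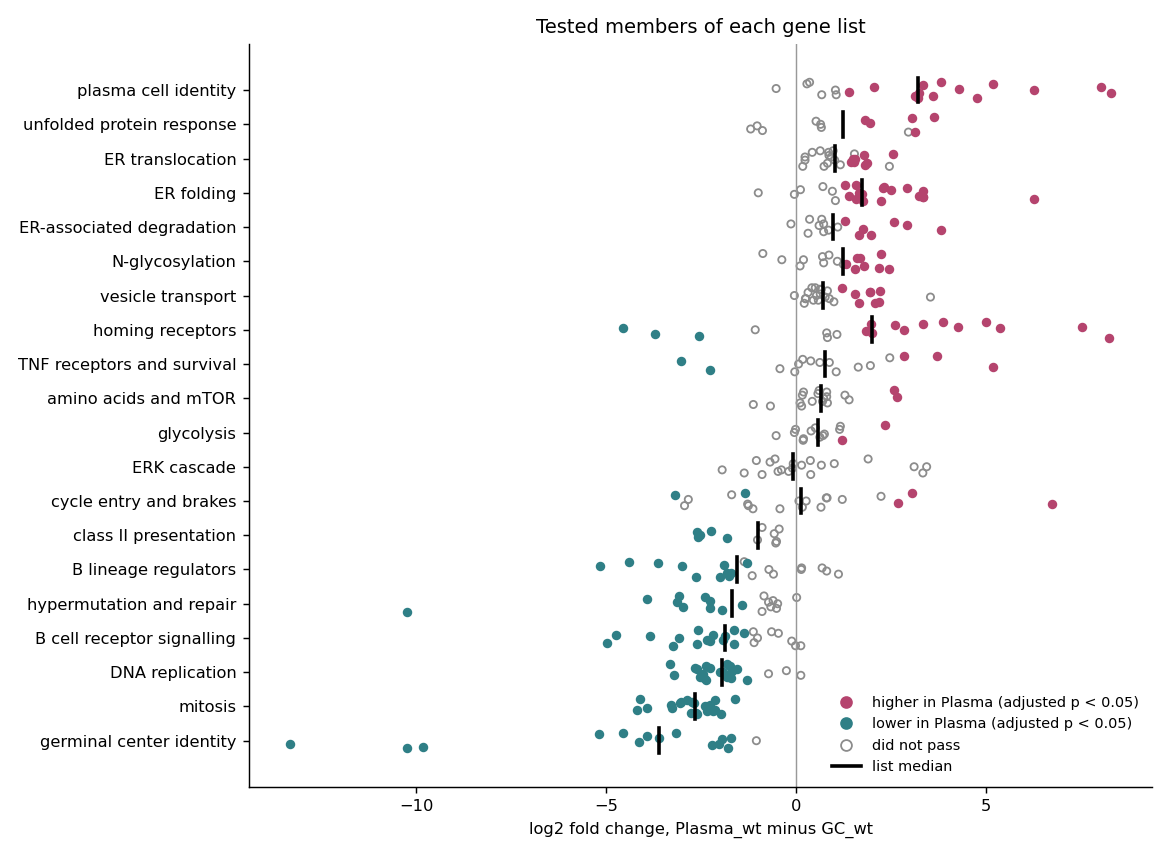
Log2 fold change (Plasma_wt minus GC_wt) of each tested member of 20 gene lists, 1 row a list, with filled points for members that passed the test, open points for those that did not and a bar at the list median. The medians run from 3.21 for plasma cell identity to -3.62 for germinal center identity.

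The sorted Plasma_wt libraries held RNA of cells that are not B cells. All 13 tested T cell markers, all 9 of NK cells, all 14 of neutrophils and all 10 of red cell precursors were higher in Plasma_wt, and 11 of 12 of monocytes and macrophages. Among all genes 8.36% were higher. Cd3e, of the T cell receptor complex, had 392, 263 and 216 CPM in Plasma_wt, against 1.57, 6.55, 0 and 2.83 CPM in GC_wt. S100a8, of neutrophil granules, had 338, 434 and 486 CPM in Plasma_wt, against 0.170, 2.36, 0 and 7.74 CPM in GC_wt (7.35, edgeR, adjusted p = 0.0742 without Plasma_wt replicate 3). Lyz2, the lysozyme of phagocytes, had 1006, 1952 and 1813 CPM in Plasma_wt and 8.17 to 29.1 CPM in GC_wt. Every marker named here was thus low in all GC_wt libraries. Summed over the lists, NK cell markers had 1434, 1555 and 1000 CPM in Plasma_wt and 4.47 to 19.9 in GC_wt, neutrophil markers 1940, 5688 and 3036 CPM in Plasma_wt and 0.649 to 32.4 in GC_wt, and monocyte and macrophage markers 2249, 2653 and 3547 CPM in Plasma_wt and 56.4 to 135 in GC_wt. Red cell precursor markers summed to 1745, 2473 and 2939 CPM in Plasma_wt and to 46.4 to 186 in GC_wt. The neutrophil genes Lcn2, Elane and Retnlg had at most 3 reads in any GC_wt library.

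Immediate early and stress genes summed to 895, 3708 and 1102 CPM in Plasma_wt and to 356 to 639 CPM in GC_wt, with 4 of 14 tested genes higher, against 8.36% of all genes. Long neuronal genes, which B cells are not known to use, summed to 107, 78.1 and 39.0 CPM in Plasma_wt, against 2274, 450, 121 and 2445 CPM in GC_wt, and 18 of 20 were called lower in Plasma_wt. Against GC_wt replicates 2 and 3 alone 1 of 20 was called lower, and in exon reads 2 of 9 tested were. Among all genes 10.8% were lower, 2.87% against GC_wt replicates 2 and 3 alone and 5.42% in exon reads. The 1 of 20 was thus near the share of all genes in that fit. The share of gene-span reads that fell on exons was 87.5%, 77.6% and 86.8% in Plasma_wt, against 67.7%, 66.1%, 85.8% and 79.4% in GC_wt. The part of these reads in the 1916 lower calls was not tested. Cd93, which the GC gate leaves out and the Plasma gate does not use, had 91.3, 25.6 and 83.5 CPM in Plasma_wt, against 0.306, 9.24, 0.216 and 2.83 CPM in GC_wt (4.40, edgeR, adjusted p = 0.0106, and 0.0578 without GC_wt replicate 4). Ptprc, which encodes B220 among other forms of CD45, had overlapping groups (3189, 1235 and 1992 CPM in Plasma_wt, 913 to 2389 CPM in GC_wt).

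**Figure D5:**
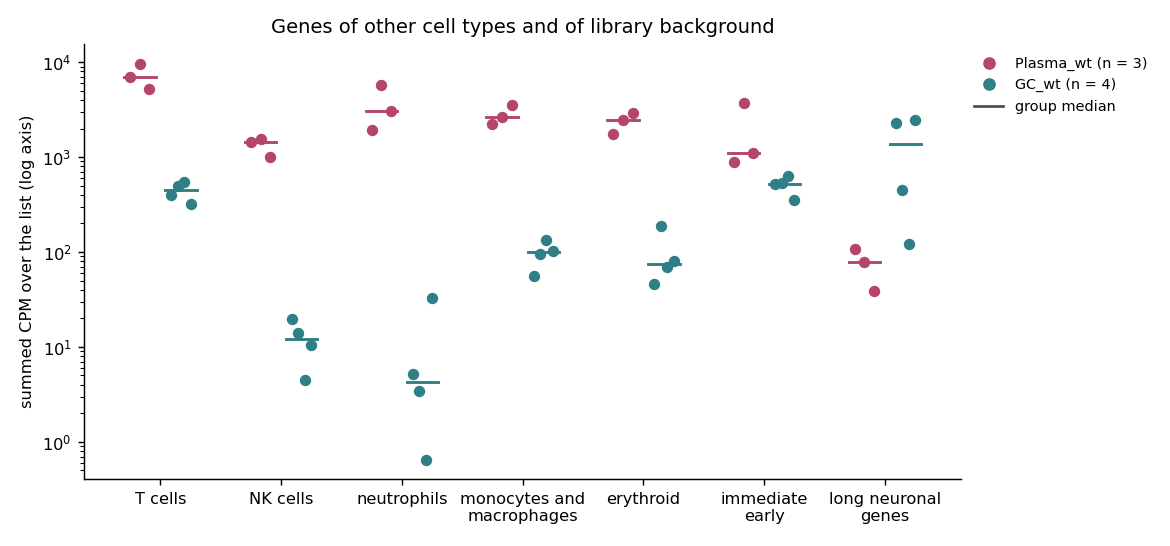
Summed CPM on a log axis of the marker genes of 5 other cell types, of immediate early genes and of long neuronal genes in each library, Plasma_wt left of GC_wt, with a bar at each group median. Every Plasma_wt library lies above every GC_wt library in the first 6 lists and below them in the last, where GC_wt ranges from 121 to 2445 CPM.

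The called genes with the largest differences, among those with at least 20 CPM in the higher group and no overlap, were led on the higher side by genes of other cells. The 12 highest were Lrg1, Ngp, Ifitm1, Lcn2, Hp, Retnlg, Ear2, Tnfrsf25, Cma1, Slfn1, Slamf9 and Cd3g, with fitted log2 fold changes from 12.17 to 8.87, which for Lrg1, Ifitm1, Ear2 and Cma1 rest on 2 or 3 GC_wt reads. Ngp, Lcn2 and Retnlg are in the neutrophil list and Cd3g is in the T cell list. Ngp, a protein of neutrophil granules, had 860, 3304 and 1237 CPM in Plasma_wt, against 0.170, 0, 0 and 2.40 CPM in GC_wt. Lrg1, a glycoprotein of neutrophil granules and the acute phase, had 3 reads in GC_wt, a ratio of 5624 in Plasma_wt over GC_wt with a 95% counting interval of 1924 to 27275; it was highest in Plasma_wt replicate 2, as Ngp was. The ratio was 1708 for Ifitm1 (584 to 8287), 1028 for Ear2 (284 to 8500) and 854 for Cma1 (292 to 4146). Slamf9, a SLAM family receptor, had 29.8, 11.7 and 32.8 CPM in Plasma_wt and at most 0.107 CPM in GC_wt, and here replicate 2 was the lowest Plasma_wt library.

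The lowest were Rgs13, Rassf6, Mybl1, Btnl2, H1f10, Elavl2, Gh, Emp2, Dlgap2, Clstn2 and Dcc. Rassf6, a RAS association domain protein, had 0, 0.403 and 0 CPM in Plasma_wt, against 138, 210, 177 and 194 CPM in GC_wt (-10.25 ± 0.88, edgeR, adjusted p = 1.91e-06). Btnl2, a butyrophilin-like molecule that restrains T cells, had 0, 0.230 and 0 CPM in Plasma_wt, against 87.9, 70.1, 62.6 and 55.2 CPM in GC_wt (-9.62 ± 0.92, edgeR, adjusted p = 5.3e-06). These 2 genes were even across the GC_wt libraries. Clstn2 and Dcc, neuronal genes with spans of 589 and 1097.6 kb, were not even: Dcc had 76.7, 8.83, 2.31 and 77.3 CPM in GC_wt replicates 1 to 4, highest in replicates 1 and 4, and neither was called against GC_wt replicates 2 and 3 alone (edgeR, adjusted p = 0.101 for Clstn2 and 0.132 for Dcc). Gh, the growth hormone gene (chromosome 11, 106191087 to 106194529, minus strand), had 0, 0.230 and 0 CPM in Plasma_wt, against 17.2, 12.5, 62.6 and 35.5 CPM in GC_wt; it lies close to Cd79b (106202167 to 106205388, minus strand), and the part of Cd79b transcripts in its reads was not tested. H1f10 (1 Plasma_wt read), Elavl2 (2) and Emp2 (3) had ratios of 877, 573 and 412 in GC_wt over Plasma_wt, with intervals of 157 to 34651, 159 to 4738 and 141 to 2001. These intervals leave out the spread between libraries. H1f10 ran from 0.374 CPM in GC_wt replicate 1 to 63.4 CPM in replicate 4. Elavl2 had 4.69 to 44.4 CPM in GC_wt and was highest in replicates 1 and 4. Against GC_wt replicates 2 and 3 alone Elavl2 was not called (edgeR, adjusted p = 0.0581). H1f10 and Emp2 were called there (edgeR, adjusted p = 0.0205 and 0.0168).

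The same comparison in the libraries labelled 1Mek2 gave more calls, 2621 higher (16.2%) and 2620 lower (16.2%) of 16175 genes tested. Map2k1 had 97.7, 119 and 87.7 CPM in Plasma_1Mek2 and 167 to 248 CPM in GC_1Mek2 (-0.97 ± 0.31, edgeR, adjusted p = 0.0352). Map2k2 had 165, 177 and 187 CPM in Plasma_1Mek2 and 62.2 to 111 CPM in GC_1Mek2 (0.95 ± 0.32, edgeR, adjusted p = 0.041). Both passed here without overlap. Of 20 tested genes of the ERK cascade 3 were higher and 3 lower, shares near the 16.2% of all genes. Of the 1485 genes called higher in the wt comparison, 1067 were called higher here, which is 71.9% of the wt calls and 40.7% of the 1Mek2 calls. Of the 1916 called lower, 1289 were called lower here (67.3% and 49.2%). The shared calls include genes of other cells and of library background. In Plasma_1Mek2, 14 of 14 tested neutrophil markers, 12 of 13 T cell markers and 10 of 10 red cell precursor markers were called higher. Of 20 long neuronal genes 18 were called lower. The part of these genes in the shared calls was not tested. Plasma cell identity genes rose in 18 of 20, and GC identity genes fell in 14 of 15. These counts again include the gate antigens Sdc1 and Fas, and Cd28. Prdm1 had 83.4, 58.4 and 49.1 CPM in Plasma_1Mek2, against 4.77, 5.89, 2.97 and 11.2 CPM in GC_1Mek2 (3.36 ± 0.48, edgeR, adjusted p = 0.000784), a wider gap between the groups than in wt. S1pr2 had 26.5, 15.6 and 31.4 CPM in Plasma_1Mek2, against 230, 244, 325 and 118 CPM in GC_1Mek2 (-3.22 ± 0.45, edgeR, adjusted p = 0.00069).

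In a test of the difference between the 2 comparisons over 14 libraries, 2 of 20133 genes passed (0.00993%), and 1690 had an unadjusted p under 0.05. DESeq2 called 154 and limma called 0 for the same difference. Etl4, known from a mouse mutation that alters intervertebral discs, had 7.17, 6.76 and 7.12 CPM in Plasma_wt, against 169, 153, 41.7 and 129 CPM in GC_wt, and 52.0, 27.8 and 50.6 CPM in Plasma_1Mek2, against 21.3, 22.4, 15.9 and 22.4 CPM in GC_1Mek2. Its wt groups were apart with Plasma_wt lower (-4.23 ± 0.55, edgeR, adjusted p = 7.72e-05). Its 1Mek2 groups were apart with Plasma_1Mek2 higher, but that contrast did not pass (0.94 ± 0.36, edgeR, adjusted p = 0.0631). Dgkg, a diacylglycerol kinase, had 30.5, 21.6 and 16.8 CPM in Plasma_wt, against 14.1, 15.7, 8.93 and 28.6 CPM in GC_wt, and 82.0, 40.7 and 58.0 CPM in Plasma_1Mek2, against 2.57, 2.65, 1.55 and 1.27 CPM in GC_1Mek2. Its groups overlapped in wt and were apart in 1Mek2. For Prdm1 the difference between the comparisons did not pass (1.36, edgeR, adjusted p = 0.652). In heavy chain reads, Ighg1 made up 32.2 to 33.7% in Plasma_1Mek2 and Igha 7.26 to 17.6%, against 4.80 to 9.59% and 32.5 to 42.0% in Plasma_wt; this difference between genotypes was not tested.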

How the data were processed

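Sorted cells were profiled by RNA-seq of polyadenylated RNA (Illumina TruSeq kit, per the labels' protocols). The authors deposited whole-number read counts per gene and TPM values. Per the submitters' processing notes, Trim Galore 0.6.5, STAR 2.7.11a and featureCounts 2.0.3 were used with GRCm39; whether strand was used in counting is not given in the sources used here, so overlapping and antisense genes are uncertain. For 50760 of 50763 genes the deposited counts come with a length equal to the whole gene span, so they can include intronic reads. Most immunoglobulin genes are at 0 in every count column, as are other genes with exon reads (1725 in all, taking a mean of 10 reads as the minimum). For those, and as an alternative for all genes, exon reads were recovered from the deposited TPM values and exonic lengths; 100% of values came out whole within 0.02. Exon read totals of the 7 wild-type libraries are of the same order as the counts, and intervals and floors cover counting error only.

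The counts of Plasma_wt and GC_wt were fitted with edgeR 4.0.16 (TMM scaling, filterByExpr, robust quasi-likelihood F test, two-sided), with Benjamini-Hochberg adjustment over all genes tested and a threshold of 0.05; standard errors are the log2 fold change over the square root of F. The same fit was made for the 1Mek2 libraries, and with an interaction term over 14 libraries. Alternatives were RLE scaling, no low-count filter, exon reads, DESeq2 1.42.0, limma 3.58.1, the animal as a block, a fold threshold of 2 and leaving out each library. Comparing with GC_wt replicates 2 and 3 alone, and a minimum of 5 CPM, were chosen after seeing the data. The script was tested on simulated data. Numbers in the library names give the animal; animals 358 and 487 gave both subsets, and the deviations of their libraries from the group means correlated at 0.00395 and 0.111. Blocked values stand beside a result where they end a call or move a count by over 1.5 times.

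The members and the 35 gene lists were chosen with earlier results of these data known, so no list has a p of its own. Named are the gate and marker genes, list members, chiefly those with the lowest p, the 12 called genes with the largest change in each direction (at least 20 CPM in the higher group, no overlap between groups, predicted genes left out) and the genes called for the interaction; a few genes that the rule names are not reported here, and genes outside it were chosen after their values were seen. Promoter sequences are from RefSeq (GRCm38.p6), matched by symbol.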

Additional observations from a re-analysis of the deposited data

Results flagged for a closer look

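In a test of the difference between the Plasma minus GC contrasts in 1Mek2 and wt libraries, Etl4 differed by 5.22 ± 0.63 on the log2 scale (edgeR, adjusted p = 0.000756) and Dgkg by 4.45 ± 0.74 (edgeR, adjusted p = 0.0484). In exon reads the wt contrast of Etl4 alone had an adjusted p of 0.0526.

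In 11 genes 1 of the 4 GC_wt libraries lay far from the other three by Dixon's ratio; chance gives this in about 1 in 20 groups, and 130 genes were looked at. GC_wt replicate 2 was the high library for Pim2 (35.8 CPM), Ccnd2 (135 CPM), E2f2 (251 CPM) and S1pr1 (75.7 CPM). GC_wt replicate 3 was the high one for Bhlha15 (3.46 CPM) and Tnfrsf13c (886 CPM). GC_wt replicate 1 was the high one for Ccnd1 (1.33 CPM), Ccr10 (0.238 CPM) and Ear2 (0.0681 CPM), and GC_wt replicate 4 for Ngp (2.40 CPM) and Cma1 (0.160 CPM). Ear2 and Cma1 had at most 3 reads in that library.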

How the results depend on the processing

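Of the 1485 genes higher and 1916 lower in Plasma_wt, the counts moved by over 1.5 times with the animal as a block (872 higher, 624 lower), in the block over animals with both subsets (684 and 701), with a fold threshold of 2 (919 and 1203), against GC_wt replicates 2 and 3 alone (823 and 462), with DESeq2 (2938 lower) and in exon reads (831 lower). Leaving out single libraries gave 802 to 1328 higher and 740 to 2482 lower. In the 1Mek2 libraries, against 2621 and 2620, a fold threshold of 2 gave 1581 higher and 1472 lower, no low-count filter 4276 lower, a minimum of 5 CPM 1602 lower, and leaving out single libraries 1711 to 2954 higher and 1397 to 3190 lower. For the difference between the contrasts, DESeq2 called 154 genes, no filter 101, the animal as a block 26, the block over animals with both subsets 9, GC_wt replicates 2 and 3 alone 4, a fold threshold of 2 called 1, limma 0, and leaving out single libraries 1 to 12. The difference in immunoglobulin share (9.62 percentage points) was 8.34 to 11.6 with single libraries left out. The cause of these moves was not tested.

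Of 130 named genes, 127 kept direction and call with DESeq2, 127 with limma, 128 with RLE scaling, 129 with no filter, 117 with the block, 116 of 128 in exon reads and 104 against GC_wt replicates 2 and 3 alone. Besides the calls named above, the block ended those of Elane and H1f10 (edgeR, adjusted p = 0.0519 and 0.0606) and no other among these genes. Reversals were limited to 4 uncalled genes. Canx was at -0.17 in exon reads, -0.12 with limma, -0.05 in the block over animals with both subsets, -0.21 against GC_wt replicates 2 and 3, and -0.61 to 0.53 with single libraries left out (-0.01, -0.14 and -0.26 without GC_wt replicates 1, 2 and 4). Ptprc was at -0.10 in exon reads, -0.15 in the block over animals with both subsets, -0.07 against GC_wt replicates 2 and 3, -0.26 without GC_wt replicate 4, and -0.37 to 0.45 with single libraries left out. Syvn1 was at 0.05 with the block and -0.47 to 0.06 with single libraries left out. Eaf2 was at 0.18 with the block. The median log2 fold change of all genes was -0.05, -0.14 with RLE scaling, -1.49 with no filter and -0.63 to -0.51 without 1 Plasma_wt library.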

Other observations

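Immunoglobulin genes took 17.2%, 25.3% and 19.4% of exon reads in Plasma_1Mek2, against 1.5%, 1.39%, 1.40% and 2.58% in GC_1Mek2. Every Plasma_1Mek2 library was above the highest Plasma_wt library, at 13.5%; this difference between genotypes was not tested.

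Markers of mast cells and basophils summed to 77.7, 170 and 145 CPM in Plasma_wt, against 0.360 to 12.1 CPM in GC_wt, and 4 of 5 tested were called higher, 2 of 5 with the animal as a block. Among all genes 8.36% were higher, and 4.91% with the block. Megakaryocyte markers summed to 79.9, 101 and 99.4 CPM in Plasma_wt and to 9.01 to 42.0 CPM in GC_wt. Plasmacytoid dendritic cell markers, some of which B lineage cells share, summed to 1029, 552 and 1070 CPM in Plasma_wt and to 235 to 586 CPM in GC_wt, with overlap. Stromal markers overlapped as well, at 137 to 174 CPM in Plasma_wt and 61.8 to 221 CPM in GC_wt.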
